A study of Mus musculus with 96 samples.

Results

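The effect of Rybp knockout on the transcriptome was examined by RNA-seq in R7.15 mouse embryonic stem cells (ESCs), which made up 4 of the 96 samples of the series. All 4 libraries came from Rybp-floxed ESCs grown in ESC medium with 15% FBS and LIF at 1000 U/mL, and the same line is labelled elsewhere in the series as carrying CreERT2 at Rosa26. Rybp-/- ESCs (2 libraries) had received 5 µM 4-OHT, the drug that activates CreERT2, for 4 days. Rybp+/+ ESCs (2 libraries) were the untreated floxed cells, so the genotype and the drug cannot be told apart in this comparison. The line is a single line, and no label says that the libraries of a genotype came from separate cultures, so p-values measure the spread between these libraries, which may be technical.

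RYBP is a subunit of non-canonical PRC1, the Polycomb complex in which RING1B places ubiquitin on histone H2A and which is best known for keeping developmental and germline genes silent in ESCs. YAF2 is its paralog and can take its place in the complex. ESCs in serum and LIF are a mixed population, in which most cells express the naive pluripotency network, some move towards the formative state, and rare cells pass through a 2-cell-like state marked by the Zscan4 family.

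The libraries held 75496499 to 81049618 reads assigned to genes, and values are given as CPM, the count scaled to the normalized size of its library. Libraries of a genotype were close to each other, with a biological coefficient of variation of 4.03%, and they differed by more than the sampling noise of their counts. All 10 ESC markers chosen, among them Pou5f1, Sox2 and Nanog, were tested and their summed level was 6436 to 6540 CPM in all 4 libraries. In Rybp-/- ESCs 4 of the 10 were higher and 5 lower, beside 22.8% and 22.7% of all genes tested. Their log2 fold changes lay between -0.50 and 0.48, which the sum does not show. Markers of feeder fibroblasts were also present. None of the 20 was at 0 in any library, 19 rose and 0 fell in Rybp-/- ESCs, beside 22.8% and 22.7% of all genes tested, and the median log2 fold change was 1.09. Fn1, which encodes fibronectin, made up most of their summed level, and the sum of the other 19 was 156.8 to 160.2 CPM in Rybp+/+ and 311.8 to 322.8 CPM in Rybp-/- ESCs. These values belong beside each rise of a gene that fibroblasts also express, and their part in the results was not tested. In bulk RNA, more cells of a type and more RNA per cell cannot be told apart.

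Rybp was lower in Rybp-/- ESCs. It had 110.4 and 110.2 CPM in the Rybp+/+ libraries and 24.8 and 25.0 CPM in the Rybp-/- libraries. The genotypes did not overlap, and the fall was 4.43-fold (log2 fold change -2.15, SE 0.05, adjusted p = 8.1e-27). This and each other adjusted p come from edgeR, by its quasi-likelihood test adjusted over all genes after Benjamini and Hochberg. Reads counted over the whole gene at chr6:100178560-100237435 (mm9) include exons that the deletion may leave in place, and whether the remaining reads came from these or from undeleted alleles was not tested. Yaf2 had 7.26 and 7.72 CPM in Rybp+/+ and 8.66 and 9.30 CPM in Rybp-/- ESCs (log2 fold change 0.26, SE 0.10, adjusted p = 0.039), a small rise that was lost when any of 3 of the 4 libraries was left out.

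Many genes passed the threshold, mostly by small changes. Of 16955 genes tested, 7720 (45.5%) had an adjusted p under 0.05, with 3873 up-regulated (22.8%) and 3847 down-regulated (22.7%). The median log2 fold change of all genes was 0.00. The balance depended on the scaling, since upper-quartile normalization gave 4883 genes higher and 2980 lower. It was also lost among large changes. When a log2 fold change beyond 1 in either direction was also required, there were 1330 genes (7.84%), with 1119 rises (6.60%) and 211 falls (1.24%). The direction also followed the level of expression. Among the 3961 genes with a mean under 1 CPM over the 4 libraries, 631 were higher and 125 lower, whereas among the 2334 genes above 100 CPM, 561 were higher and 813 lower. The filter on low counts lets a gene pass when it is expressed in a single genotype, so a gene silent in the Rybp+/+ libraries could be tested only if it rose. The plot of fold change against expression shows both features.

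**Figure D1:**
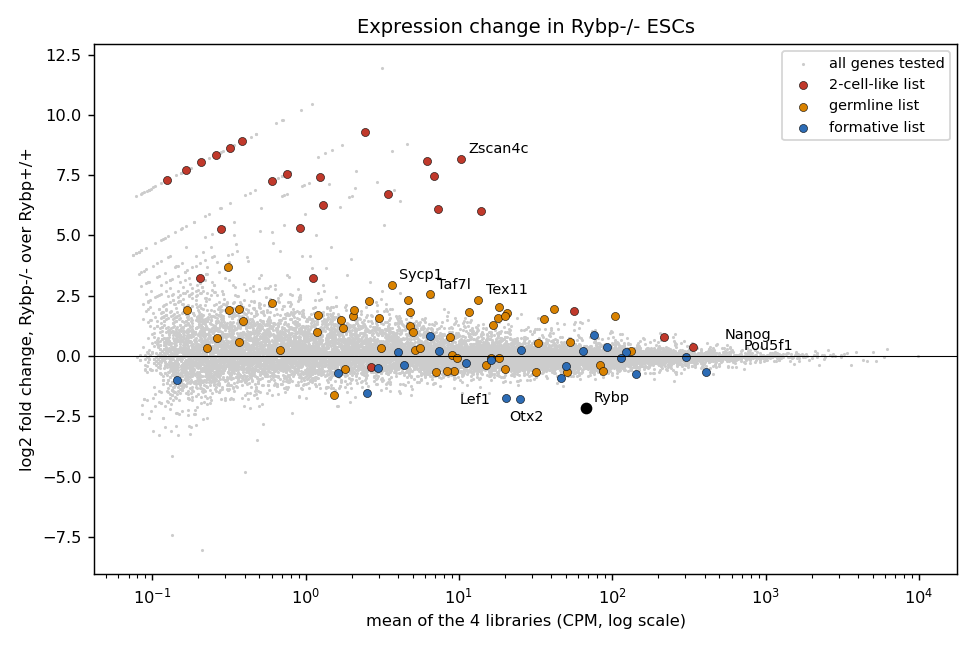
Log2 fold change between Rybp-/- and Rybp+/+ ESCs against the mean of the 4 libraries in CPM, one point per gene, with 16955 genes in grey and the 2-cell-like, germline and formative lists in colour. The slanting lines at the upper left are genes with few or no counts in Rybp+/+ ESCs, whose fitted fold change depends on the prior count. Zscan4c lies at 8.19, Rybp (black) lies at -2.15, and Pou5f1 and Nanog lie near 0 and at 0.48.

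Most genes of the 2-cell-like state were nearly silent in Rybp+/+ ESCs and rose in Rybp-/- ESCs. Of 25 tested, 21 had a mean under 0.5 CPM in Rybp+/+ ESCs and all 21 were higher in Rybp-/- ESCs. The other 4, Eif1a, Tbx3, Calcoco2 and Zfp54, were already expressed, and Eif1a and Tbx3 made up most of the summed level of the list, which was 488 and 479 CPM in Rybp+/+ and 863 and 865 CPM in Rybp-/- ESCs. Of 35 genes in this list, 28 were matched, 25 were tested, 24 were higher and 1, Zfp54, was lower. This share of 96.0% stands beside 22.8% of all genes, and it is a description, since members silent in Rybp+/+ ESCs passed the filter only through the Rybp-/- libraries. The median log2 fold change was 7.24, or 5.30 when the 6 genes without a count in Rybp+/+ ESCs were set to the bound that 3 counts over both libraries allow, beside 0.00 for all genes.

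Zscan4 genes encode zinc finger proteins with a SCAN domain that are expressed at the 2-cell stage and in rare ESCs. The 6 copies tested lie in a cluster on chromosome 7 of mm9, from Zscan4b at chr7:11486098-11490399 to Zscan4-ps2 at chr7:12099659-12104460. The copies are close in sequence, and reads not uniquely aligned were left out of the counts. Each copy may thus be undercounted, and its value is uncertain. The 250 bases before the annotated start of Zscan4c and Zscan4f were identical at 248 positions (99.2%), and are shown for this likeness. Compared position by position without alignment, the windows of Zscan4b, Zscan4c, Zscan4e and Zscan4f were 94.8% to 99.6% identical to each other. That of Zscan4d matched them at 24.4% to 24.8% of positions. It holds much the same sequence, TATAAA included, at a shifted position, so its low value reflects the lack of alignment. The windows of Zscan4c and Zscan4f are given 5′ to 3′ in the direction of transcription from the mm9 genome, with the TATAAA motif in capitals. They lie at chr7:11590821-11591070 and chr7:11983014-11983263 (both on the plus strand).
Zscan4c: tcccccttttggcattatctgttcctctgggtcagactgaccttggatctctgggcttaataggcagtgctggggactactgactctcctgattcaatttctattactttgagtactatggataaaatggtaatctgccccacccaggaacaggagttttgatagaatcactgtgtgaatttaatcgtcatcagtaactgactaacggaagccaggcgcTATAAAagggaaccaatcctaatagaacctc
Zscan4f: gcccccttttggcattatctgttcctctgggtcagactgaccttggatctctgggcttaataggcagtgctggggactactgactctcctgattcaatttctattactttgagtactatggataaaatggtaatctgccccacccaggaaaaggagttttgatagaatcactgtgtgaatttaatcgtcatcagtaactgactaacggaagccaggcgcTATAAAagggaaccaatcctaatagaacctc
TATAAA, searched on both strands (TATAAA or TTTATA), was present in 7.46% of the windows of the 15042 protein-coding genes tested, each of the same length.

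Zscan4c had 8 and 3 counts (0.102 and 0.0373 CPM) in the Rybp+/+ libraries and 1567 and 1591 counts (20.6 and 20.7 CPM) in the Rybp-/- libraries. The genotypes were far apart and the rise was 292-fold (log2 fold change 8.19, SE 0.19, adjusted p = 5.5e-26). Zscan4f rose from 0.0127 and 0.0746 CPM to 12.6 and 12.0 CPM (log2 fold change 8.07), and Zscan4d from 0.0891 and 0.0621 CPM to 13.9 and 13.6 CPM (7.48). Zscan4b, Zscan4e and the copy annotated as Zscan4-ps2 rose by log2 fold changes of 6.72, 6.10 and 6.87. All 6 were among the 12 largest rises with at least 5 CPM in either genotype.

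Further genes rose with them. Tmem92-ps, which is not in the list, had 6 and 0 counts in Rybp+/+ and 431 and 462 counts in Rybp-/- ESCs, and Dub3, also outside the list and a member of a deubiquitinase family with several close copies, rose from 0.165 and 0.124 CPM to 6.61 and 6.05 CPM (log2 fold change 5.44, SE 0.24). Gm8300 had 1 count over both Rybp+/+ libraries and 751 over both Rybp-/- libraries, a ratio of 793 with a 95% counting interval of 142 to 31382. Zfp352 and Tdpoz3 had no count in Rybp+/+ ESCs and were at least 34.5-fold and 41.6-fold higher against a floor of 3 counts over both libraries. Dux, whose product is an early activator of the 2-cell program, had 0 and 0 counts in Rybp+/+ and 28 and 10 counts in Rybp-/- ESCs, at least 13.4-fold more. Calcoco2, an autophagy receptor gene, was already expressed in Rybp+/+ ESCs at 23.3 and 25.6 CPM and rose to 88.0 and 88.8 CPM (log2 fold change 1.86, SE 0.05, adjusted p = 3.7e-24). Every gene of this paragraph was separated between the genotypes in all 4 libraries, as 70.8% of all genes were.

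**Figure D2:**
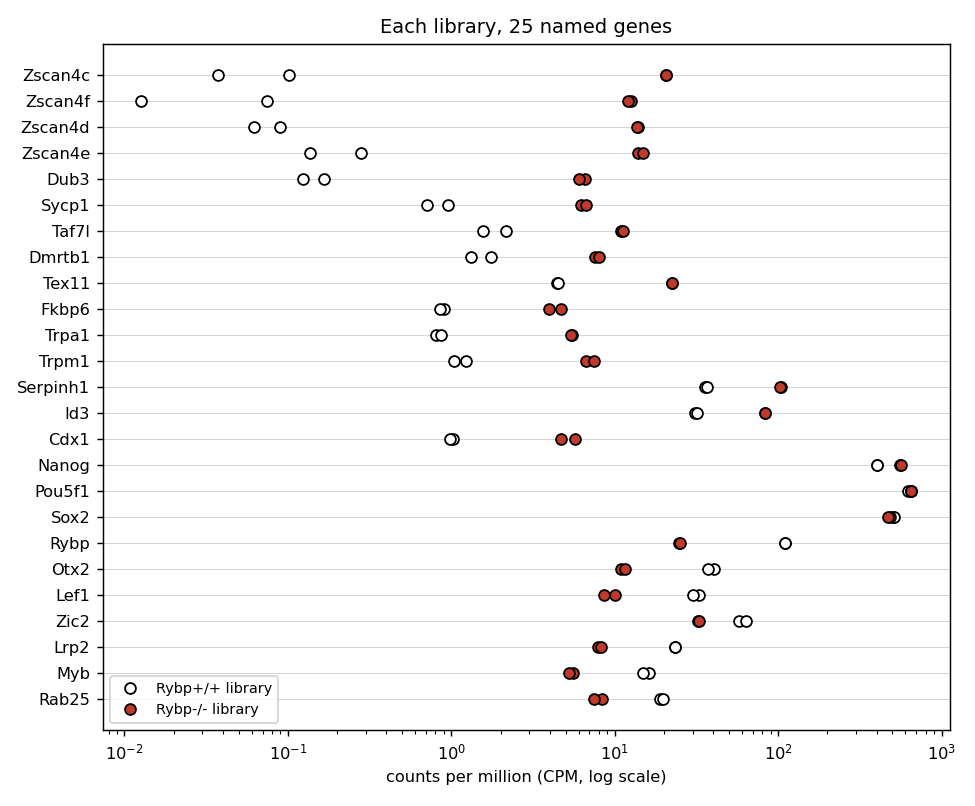
CPM (log scale) of 25 named genes in each of the 4 libraries, open circles for Rybp+/+ and filled circles for Rybp-/- ESCs. The 4 Zscan4 genes plotted lie below 0.3 CPM in both Rybp+/+ libraries and above 11 CPM in both Rybp-/- libraries, while Pou5f1 and Sox2 nearly coincide.

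Germline genes, which non-canonical PRC1 with PCGF6, E2F6, MGA and L3MBTL2 is known to repress in ESCs, rose in most cases. Of 62 genes in the list, 56 were tested, 35 (62.5%) were higher and 10 (17.9%) lower, with a median log2 fold change of 1.09, beside 22.8% higher and 22.7% lower among all genes. The share that fell was thus no larger than among all genes. Sycp1, which encodes the transverse filament of the synaptonemal complex, had 0.954 and 0.708 CPM in Rybp+/+ and 6.18 and 6.69 CPM in Rybp-/- ESCs (log2 fold change 2.95, SE 0.18, adjusted p = 5.3e-15). Syce1, another synaptonemal complex gene, rose by 2.04, whereas Rec8, a meiotic cohesin gene, had 15.8 and 17.7 CPM against 14.9 and 16.7 CPM (-0.09, adjusted p = 0.41). Sycp3 was likewise not past the threshold, with 10.3 and 9.84 CPM against 9.07 and 9.76 CPM. Tex11, a meiosis gene on the X chromosome, rose from 4.40 and 4.49 CPM to 22.3 and 22.4 CPM (2.33, SE 0.09).

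Piwil2, an Argonaute of the piRNA pathway, had 18.4 and 16.0 CPM in Rybp+/+ and 65.8 and 67.8 CPM in Rybp-/- ESCs (log2 fold change 1.96, SE 0.06). Mael, needed for transposon silencing in germ cells, rose from 9.35 and 9.44 CPM to 30.2 and 33.9 CPM (1.77, SE 0.08). Tdrd1 and Mov10l1, of the same pathway, rose by 1.81 and 1.83. Other piRNA pathway genes did not follow. Pld6, Tdrd5 and Tdrd12 fell by 0.63, 0.65 and 0.60 on the log2 scale, and Tdrd7 had a log2 fold change of 0.34 that did not pass the threshold. Among regulators, Dazl and Ddx4, which encode germ cell RNA-binding proteins, rose by 1.56 and 1.54, and Taf7l, a germ cell TFIID subunit gene, rose from 1.56 and 2.16 CPM to 10.9 and 11.2 CPM (2.57, SE 0.14). Dmrtb1 and Fkbp6 rose by 2.34 and 2.29. The 10 genes that fell included Msh4, a meiotic recombination gene that had 2.35 and 2.22 CPM in Rybp+/+ and 0.762 and 0.741 CPM in Rybp-/- ESCs (-1.60, SE 0.25), and Stag3, Smc1b and Dmc1, with falls of 0.67, 0.63 and 0.37 on the log2 scale.

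Sequence motifs were counted in the 250 bases before the annotated start of each gene, because the MGA and MAX proteins of this complex bind the E-box CACGTG and its E2F6 subunit binds sites of the E2F type. CACGTG, which reads the same on both strands, was present in 14 of the 35 germline promoters whose genes rose (40.0%), in 1 of 9 that fell and in 2 of 11 that did neither. Among all 15042 protein-coding genes tested, 8.04% of the windows held it, and among all 22380 annotated protein-coding genes 6.51%. In the 2-cell-like list it was present in 0 of 25. The E2F-type motif GCGGGA, searched on both strands (GCGGGA or TCCCGC), was present in 7 of the 35 promoters of germline genes that rose (20.0%) and in 27.6% of the windows of all protein-coding genes tested. It was found in 5 of the 9 that fell and in 6 of the 11 that did neither. The tenth gene that fell, Tdrd5, is not annotated as protein-coding and had no window. A match is only a match of letters, and no binding was measured here. The windows of the 2 genes with the largest rises among those with an E-box and that of Mael, which holds both motifs, are shown with both motifs in capitals. They were read from mm9 on the minus strand at chr3:102740024-102740273, chrX:131011030-131011279 and chr1:168168876-168169125.
Sycp1: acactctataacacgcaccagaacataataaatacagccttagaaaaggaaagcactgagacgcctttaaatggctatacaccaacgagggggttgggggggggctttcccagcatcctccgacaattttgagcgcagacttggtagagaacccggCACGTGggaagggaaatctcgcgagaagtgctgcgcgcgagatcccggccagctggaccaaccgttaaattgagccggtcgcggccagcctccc
Taf7l: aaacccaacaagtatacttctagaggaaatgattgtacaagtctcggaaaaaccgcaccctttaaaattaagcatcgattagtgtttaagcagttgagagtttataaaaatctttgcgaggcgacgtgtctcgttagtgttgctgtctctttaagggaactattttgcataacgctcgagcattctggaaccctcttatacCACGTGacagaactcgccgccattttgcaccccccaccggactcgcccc
Mael: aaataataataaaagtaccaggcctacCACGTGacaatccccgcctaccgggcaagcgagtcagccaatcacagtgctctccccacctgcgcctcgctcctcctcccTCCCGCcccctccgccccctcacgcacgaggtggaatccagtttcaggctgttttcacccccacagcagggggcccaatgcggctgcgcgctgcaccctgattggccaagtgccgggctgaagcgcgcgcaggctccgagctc
The E-box with 10 bases on each side is given for 4 other genes that rose, to show how far the flanks differ.
Mov10l1: catgctccttCACGTGctaaccgcca
Brdt: caggcacagtCACGTGgcagaccctg
Ddx4: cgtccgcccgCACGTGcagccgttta
Stk31: gccggccaccCACGTGaccagggctg

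Chromatin at these promoters was described from the peak lists of H3K4me3, H3K27ac and WDR5, which pool the replicates of each genotype and therefore allow no test. A gene was counted when a peak overlapped the 2.5 kb on either side of one of its annotated starts in mm9. H3K27ac, a mark of active promoters and enhancers, was found at 20 of the 56 germline genes in Rybp+/+ and at 32 in Rybp-/- ESCs. Over all genes tested the numbers were 12044 and 12675, or 71.0% and 74.8%. No germline gene lost its H3K27ac peak. Of the 12 that gained one, 9 rose in expression, among them Sycp1, Syce1, Piwil2, Ddx4 and Dmrtb1, and 2 fell. The share of rises is the same as among all 36 germline genes without an H3K27ac peak in Rybp+/+ ESCs, which include these 12. Of the 36, 27 rose (75.0%) and 3 fell (8.33%). WDR5 peaks were found at 28 of the germline genes in Rybp+/+ and at 36 in Rybp-/- ESCs, beside 62.2% and 65.2% of all genes. Of the 10 genes that gained a WDR5 peak, 6 rose, Sycp1, Syce1 and Tex11 among them, 3 fell and 1 did neither, whereas of all 28 without a WDR5 peak in Rybp+/+ ESCs 20 rose and 4 fell, and 2 genes that rose lost their peak. Gains of either peak thus did not go with a larger share of rises in this list. H3K4me3 was already present at 51 of the 56 in Rybp+/+ ESCs and at 52 in Rybp-/- ESCs. At Sycp1 the H3K4me3 peak had a fold enrichment of 12.4 in Rybp+/+ (chr3:102739193-102740190) and 19.7 in Rybp-/- ESCs (chr3:102739103-102740301), values of lists whose depth is unknown. RING1B, in a single library of control R1 ESCs, had a peak at 50 of the 56 germline genes and at 2 of the 25 tested 2-cell-like genes, beside 57.2% of all genes. An H3K4me3 peak was found at 5 of these 25 in each genotype, and how reads from near-identical copies were placed is not given in the sources used here.

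**Figure D3:**
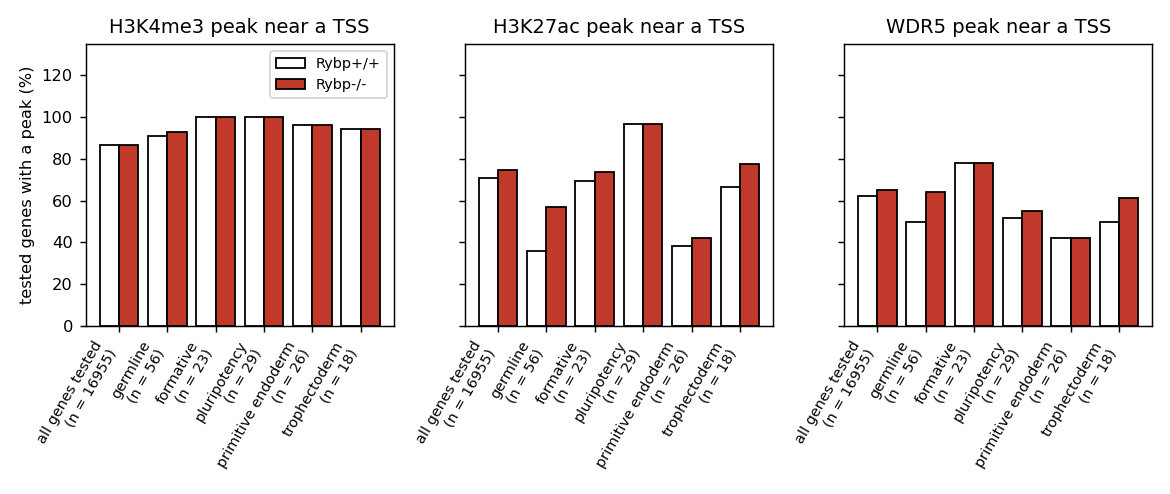
Share of tested genes (%) with a peak of H3K4me3, H3K27ac or WDR5 within 2.5 kb of an annotated start, white bars for Rybp+/+ and red bars for Rybp-/- ESCs, for all genes tested and 5 lists. Replicates were pooled by the authors, so the bars have no error. H3K27ac is found at 35.7% and 57.1% of the germline genes and at 71.0% and 74.8% of all genes.

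Promoter classes were also described over all genes tested, of which 22.8% were higher and 22.7% lower. Among 832 genes with an H3K27ac peak near a start in Rybp-/- ESCs alone, 349 were higher (41.9%, exact 95% binomial interval 38.6 to 45.4, counting error only) and 75 lower (9.01%), with a median log2 fold change of 0.39. Of all 4911 genes without an H3K27ac peak in Rybp+/+ ESCs, 29.0% were higher and 8.19% lower. The 201 genes with such a peak in Rybp+/+ ESCs alone had 29 higher, 42 lower and a median of -0.09. For WDR5, the 1016 genes with a peak in Rybp-/- ESCs alone had 297 higher (29.2%) and 171 lower (16.8%), beside 25.4% and 11.6% of all 6403 genes without a WDR5 peak in Rybp+/+ ESCs, and of the 509 with a peak in Rybp+/+ ESCs alone 25.7% were higher and 19.8% lower. Genes with both H3K4me3 and RING1B near a start numbered 9654, of which 2423 were higher (25.1%) and 2520 lower (26.1%). Those with H3K4me3 and no RING1B peak numbered 5030, with 1000 higher (19.9%) and 1153 lower (22.9%). The order of the falls depended on the peak threshold. With peaks of -log10 q of at least 5, 28.9% of genes with both were higher and 23.0% lower, and 26.6% of those with H3K4me3 and no RING1B were lower. The 2233 genes with neither had 436 higher and 174 lower, and they contributed 322 of the 1119 rises above 1.

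Genes of the formative state, through which ESCs leave naive pluripotency, fell more often than they rose. Of 23 tested, 11 (47.8%) were lower and 6 (26.1%) higher, with a median log2 fold change of -0.29, beside 22.7% lower and 22.8% higher among all genes. Otx2, a transcription factor gene of the formative and primed states, had 40.3 and 37.3 CPM in Rybp+/+ and 10.8 and 11.6 CPM in Rybp-/- ESCs. This was a 3.46-fold fall (log2 fold change -1.79, SE 0.07, adjusted p = 2.2e-20), and the largest after Rybp among the genes that the naming rule covers. Lef1, a nuclear effector of Wnt signalling, fell from 32.7 and 30.2 CPM to 8.57 and 10.0 CPM (-1.75, SE 0.08). Fgf5, a marker of the primed epiblast, fell from 3.41 and 4.14 CPM to 1.60 and 0.974 CPM (-1.55, SE 0.21). Zic2 fell by 0.90 on the log2 scale, and the de novo DNA methyltransferase genes Dnmt3a and Dnmt3b fell by 0.73 and 0.64. The share of rises was near that of all genes, and they were led by Spry4, a feedback inhibitor of FGF signalling, and Cdh2, the N-cadherin gene, with 0.87 and 0.83. All 23 genes had an H3K4me3 peak in both genotypes and a RING1B peak near a start, beside 86.6% (H3K4me3 in Rybp+/+) and 57.2% (RING1B) of all genes, and the H3K27ac peaks at those that fell were the same in number, 7 of 11, in both genotypes.

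Pluripotency genes changed often but by small amounts. Pou5f1, which encodes OCT4, had 622 and 648 CPM in Rybp+/+ and 648 and 651 CPM in Rybp-/- ESCs (log2 fold change 0.03, SE 0.03, adjusted p = 0.39). Nanog rose from 400.0 and 404.6 CPM to 557 and 567 CPM (0.48, SE 0.03, adjusted p = 4.0e-15), and Sox2 moved from 503 and 512 CPM to 481 and 468 CPM (-0.10, SE 0.03, adjusted p = 0.0072). Of 29 pluripotency genes tested, 15 were higher (51.7%) and 9 lower (31.0%), beside 22.8% and 22.7% of all genes, and none changed by more than 1 on the log2 scale. The largest changes were rises of the naive factor gene Tbx3 (0.77), Jam2 (0.70), Tcl1 (0.68), Fbxo15 (0.60) and Spic (0.56). The falls included those of Tcea3 and Utf1 (-0.54 and -0.50). Of 21 genes of the LIF and STAT3 pathway tested, 6 were higher and 6 lower (28.6% each), near the shares of all genes. Socs3, a direct STAT3 target, rose by 0.33 and Klf4 by 0.42, and Gadd45g fell from 59.2 and 59.6 CPM to 27.1 and 28.1 CPM (-1.11, SE 0.05).

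Lineage lists were read against the 22.8% of all genes that were higher and the 22.7% that were lower. In the primitive endoderm list 17 of 26 tested were higher (65.4%) and 0 lower, with a median of 0.67. Serpinh1, a collagen chaperone gene, had 35.8 and 36.5 CPM in Rybp+/+ and 103.5 and 101.9 CPM in Rybp-/- ESCs (log2 fold change 1.51, SE 0.04), Col4a1 rose by 1.14 and Pdgfra by 1.43. Fibroblasts also express these 3 genes, and the summed level of the fibroblast markers other than Fn1 rose from 156.8 to 160.2 CPM to 311.8 to 322.8 CPM. The part of this in the rise of the list was not tested. The endoderm transcription factor genes were not uniform. Gata4 rose by 0.78, and Gata6, Sox17 and Foxa2 did not pass the threshold. In the trophectoderm list 15 of 18 tested were higher (83.3%) and 0 lower. Cdx1 rose from 1.03 and 0.982 CPM to 4.70 and 5.73 CPM (2.37, SE 0.19), and Cdx2, the trophectoderm regulator, from 2 and 2 counts to 46 and 13 counts, a rise that did not pass the threshold without the first Rybp-/- library. In the streak and mesoderm list 11 of 24 tested were higher (45.8%) and 2 lower (8.33%). Id1 and Id3, targets of BMP signalling that fibroblasts also express, rose by 1.56 and 1.41, Id3 from 30.9 and 31.9 CPM to 83.5 and 83.0 CPM. Wnt3a rose by 2.24 and Tbx6 fell by 1.30, both below 3 CPM. Of 39 Hox genes 17 were tested, 8 were higher (47.1%) and 0 lower, all 8 below 3 CPM. Members nearly silent in Rybp+/+ ESCs, such as Hoxd10 (3 and 0 counts) and Cdx2 above, passed the filter only through the Rybp-/- libraries. The shares of lists with such members are therefore a description. Hoxa7 rose by 2.13, from 0.178 and 0.186 CPM to 0.723 and 0.883 CPM. Of 20 neural genes tested, 2 were higher (10.0%) and 4 lower (20.0%), a share of falls near that of all genes, and Pax6 fell from 1.92 and 1.64 CPM to 0.565 and 0.870 CPM (-1.31, SE 0.28).

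**Figure D4:**
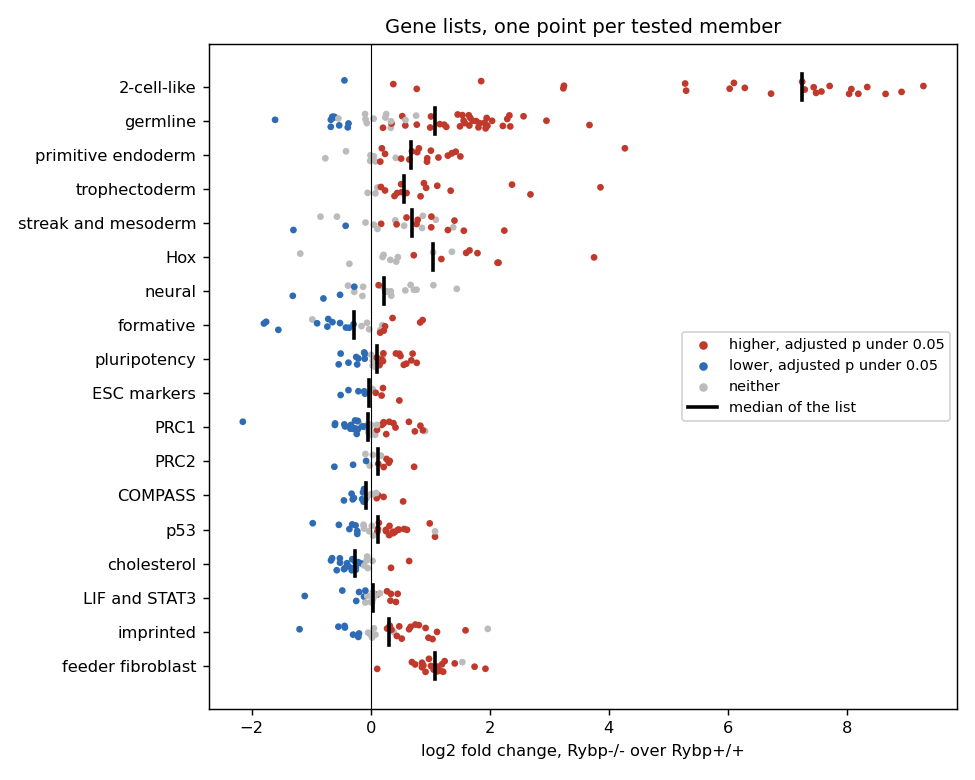
Log2 fold change of each tested member of 18 gene lists, red for higher, blue for lower and grey for neither at an adjusted p under 0.05, with the median of each list as a black bar. The 2-cell-like list has a median of 7.24, the germline and feeder fibroblast lists have 1.09 each, and the formative list has -0.29.

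Genes of the Polycomb complexes themselves shifted by small amounts. Of 41 PRC1 genes tested, 12 were higher (29.3%) and 16 lower (39.0%), beside 22.8% and 22.7% of all genes, and Rybp alone changed by more than 1. The catalytic subunits did not pass the threshold. Rnf2, which encodes RING1B, had 122.6 and 119.4 CPM in Rybp+/+ and 111.7 and 115.9 CPM in Rybp-/- ESCs (log2 fold change -0.09, SE 0.04, adjusted p = 0.054), and Ring1 had 11.8 and 11.7 CPM against 11.8 and 11.0 CPM (-0.04, adjusted p = 0.76). Phc2, of canonical PRC1, rose from 24.7 and 24.5 CPM to 44.3 and 46.0 CPM (0.88, SE 0.06), and E2f6 rose by 0.64. Auts2 and Kdm2b, of non-canonical complexes, each fell by 0.60. Among 13 PRC2 genes 6 were higher (46.2%) and 3 lower (23.1%), the latter near the share of all genes. E130012A19Rik rose by 0.73, and the methyltransferase genes Ezh1 and Ezh2 fell by 0.61 and 0.30.

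Of 18 genes of COMPASS, the complex that methylates H3K4, 4 were higher (22.2%), near the 22.8% of all genes, and 9 were lower, beside 22.7% of all genes. Wdr5, a core subunit shared with non-canonical PRC1, had 245 and 253 CPM in Rybp+/+ and 225.4 and 225.6 CPM in Rybp-/- ESCs (log2 fold change -0.14, SE 0.03, adjusted p = 5.0e-04). Setd1b rose by 0.54, and Mll3 and Dpy30 fell by 0.45 and 0.32.

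Other pathways were described by count, beside 22.8% higher and 22.7% lower among all genes. Of 25 genes of cholesterol metabolism tested, 2 were higher and 18 (72.0%) lower, with a median of -0.27, and Lss, the lanosterol synthase gene, fell from 89.0 and 91.9 CPM to 58.9 and 56.6 CPM (-0.65, SE 0.04). Of 30 p53 targets, 16 were higher (53.3%) and 7 lower (23.3%), the latter near the share of all genes. Btg2 rose by 1.08 and Cdkn1a, which encodes p21, by 0.47, whereas Ddit4 fell by 0.97. Among 7 genes of CDK inhibitors, Cdkn1c, Cdkn2a, Cdkn2b and Cdkn1a were higher and Cdkn1b and Cdkn2c lower, within 0.97 on the log2 scale. Of 32 imprinted genes tested, 16 were higher and 7 lower (21.9%), the latter again near the share of all genes. Dlk1 and H19, which fibroblasts can also express, rose by 1.59 and 1.04, and Nnat fell by 1.19. Trpa1 and Trpm1, genes of cation channels, were in no list and rose by 2.71 and 2.63, from under 1.3 CPM to above 5 CPM in each library.

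The remaining large falls were in no shared list. Lrp2, the endocytic receptor megalin, had 23.49 and 23.52 CPM in Rybp+/+ and 7.86 and 8.28 CPM in Rybp-/- ESCs (log2 fold change -1.54, SE 0.08, adjusted p = 5.8e-17). Myb, a transcription factor gene, fell from 16.1 and 14.9 CPM to 5.57 and 5.22 CPM (-1.52). Bhlha15, Irs4, Enpp2, Atcay, Fgf11, Mapk12 and Rab25 fell by 1.61, 1.55, 1.46, 1.44, 1.37, 1.33 and 1.30. By chromosome, median log2 fold changes of the autosomes and the X lay between -0.05 (chromosome 13) and 0.04 (chromosome 6). Chromosome 6, which carries Rybp, had the highest share of up-regulated genes among them, 237 of 811 (29.2%). Of 15 mitochondrial genes tested 10 were higher and 0 lower, beside 22.8% and 22.7% of all genes, and mitochondrial reads made up 1.36% to 1.44% of the counts in Rybp+/+ and 1.67% to 1.68% in Rybp-/- ESCs.

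The knockout was compared with RYBP knockdown in R1 ESCs (shRybp against shEV, 2 libraries each, with control libraries of their own), the most similar experiment of the series. The test was of the difference between both effects. It passed the threshold for 7366 of 18203 genes (40.5%), 4046 (22.2%) with the more positive effect in the knockout and 3320 (18.2%) with the more negative. With a difference past 1 on the log2 scale there were 1696 genes (9.32%), 577 (3.17%) more positive and 1119 (6.15%) more negative in the knockout. The knockdown by itself changed 8721 of 16538 genes (52.7%), 4428 upwards (26.8%) and 4293 downwards (26.0%). The cell line, the way of depletion and the drug differ between the experiments and cannot be told apart. Rybp itself fell by 2.15 on the log2 scale in the knockout and by 1.25 in the knockdown, a difference of -0.87 (SE 0.07, adjusted p = 1.2e-09).

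In the 2-cell-like list 23 of 25 genes were higher after knockdown, beside 26.8% of all genes, with a median log2 fold change of 2.04. The effect was more positive in the knockout for 22, beside 22.2% of all genes. The starting levels differed. In R1 ESCs Zscan4c was at 15.7 and 16.3 CPM with shEV and at 74.4 and 71.5 CPM with shRybp, so its level in Rybp-/- ESCs (20.6 and 20.7 CPM) was close to that of the R1 control and its level in Rybp+/+ ESCs far below it. The tables were normalized separately for these levels. In the joint fit the difference of effects was 6.02 (SE 0.23, adjusted p = 1.1e-14). In the germline list 30 of 54 genes were higher and 8 lower after knockdown, beside 26.8% and 26.0% of all genes. The difference passed the threshold for 25 with the more positive effect in the knockout and for 12 with the more negative. Over all genes these shares were 22.2% and 18.2%, so the share with the more negative effect was near that of all genes. Taf7l rose by 2.57 and 2.42 in knockout and knockdown, with a difference of 0.17 (SE 0.19, adjusted p = 0.53), and Dazl by 1.56 and 1.78 (-0.19, SE 0.12). Sycp1 rose by 2.95 and 0.74 (2.23, SE 0.21), and Rec8 rose by 1.16 after knockdown.

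In the formative list 14 of 22 genes were lower and 5 higher after knockdown, with a median log2 fold change of -0.25, beside 26.0% lower and 26.8% higher among all genes. The difference of effects passed the threshold for 8 genes with the more positive effect in the knockout and for 8 with the more negative. Over all genes these shares were 22.2% and 18.2%. Otx2 had a log2 fold change of -0.17 after knockdown (adjusted p = 0.07), a difference of -1.60 (SE 0.10, adjusted p = 2.7e-11). Lef1 rose by 0.67 after knockdown, a difference of -2.41 (SE 0.14). Dnmt3a fell by 0.73 and 0.67, with a difference of -0.04 (SE 0.05, adjusted p = 0.61). Pou5f1 fell by 0.66 after knockdown alone, and the difference was 0.71 (SE 0.05). Of the 20 fibroblast markers, 12 passed the filter in the knockdown table, and 9 of these were higher and 0 lower after knockdown, with a median log2 fold change of 0.88, beside 26.8% higher and 26.0% lower among all genes. The plot of both effects shows the lists side by side.

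**Figure D5:**
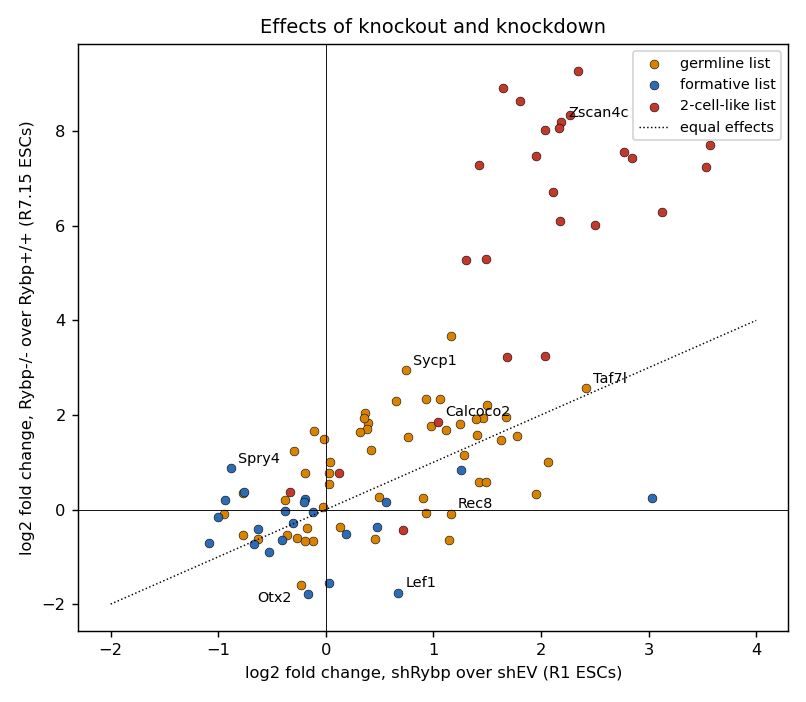
Log2 fold change in Rybp-/- against Rybp+/+ R7.15 ESCs (vertical) and in shRybp against shEV R1 ESCs (horizontal) for members of the 2-cell-like (red), germline (orange) and formative (blue) lists tested in both, with equal effects as a dotted line. Most 2-cell-like genes lie above the line, Taf7l lies close to it, and Lef1 rose in the knockdown and fell in the knockout.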

How the data were processed

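RNA-seq was performed in 2 Rybp+/+ and 2 Rybp-/- libraries of R7.15 ESCs. Per the labels' processing notes, the authors used Trim Galore, STAR, HTSeq and mm9, and deposited raw counts for 37620 gene IDs, of which 37205 matched a symbol in GENCODE M1 (mm9). The deposited peak lists give fold enrichment (a ratio over background) and -log10 q values from the authors' peak caller, with replicates merged for H3K4me3, H3K27ac and WDR5 and 1 library for RING1B. They were used for peak positions, for the fold enrichment at Sycp1 and for a stricter q threshold as an alternative.

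Entries that name no gene were dropped (6.10% to 6.59% of all counts without a feature, 2.96% to 3.04% ambiguous, 4.46% to 4.59% not uniquely aligned). Counts were filtered with filterByExpr, normalized with TMM and tested with edgeR 4.0.16 (quasi-likelihood test, Benjamini-Hochberg adjustment, threshold 0.05) in R 4.3.3. SEs were obtained from the log2 fold change and the F statistic. Paired library numbers were not used. Alternatives were DESeq2 1.42.0, other normalizations and filters, a replicate block and each library left out. Promoter sequence was read from the NCBIM37 (mm9) genome.

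Genes are named when they are Rybp, Yaf2, Rnf2, Ring1, Wdr5, Pou5f1, Sox2 or Nanog, when they are among the 12 largest rises or falls past the threshold with at least 5 CPM in either genotype, no overlap and no clone-type symbol, or when they are among the 6 largest changes or the 3 most abundant genes of a list that did not pass the threshold. Other genes, among them Dux, Calcoco2, Piwil2, Mael, Dazl, Ddx4, Syce1, Msh4, Pld6, Eif1a, Gata4 and Dnmt3a, were named after their values were seen. The members and lists were chosen with earlier results of these data known. The RNA-seq tables of RYBP phase separation mutants and RYBP overexpression were not used here, because their column names match more than one group. Some genes are not reported here.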

Additional observations from a re-analysis of the deposited data

Results flagged for a closer look

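Of 188 genes considered, 19 passed the threshold in opposite directions in the knockout and the knockdown with the difference past the threshold. In 12 of these 19 the difference was above 1 on the log2 scale. Over all genes tested, 45.5% were called in the knockout and 52.7% in the knockdown, and the share called in opposite directions was not counted. Many of the 188 were named for large changes in these data, so the counts are a description. The cell line, the way of depletion and the control differ between both experiments and cannot be told apart. Genes lower in Rybp-/- ESCs and higher after knockdown were Gadd45g and Ddit4, both stress-responsive, with differences of -2.79 and -2.76. The differences were -2.41 for Lef1, -2.26 for Rab25, -2.06 for Dlx2 and -1.999 for Lrp2. Rrm2b, a p53-regulated subunit of ribonucleotide reductase, differed by -1.02. Genes higher in Rybp-/- ESCs and lower after knockdown were the pluripotency genes Jam2 and Tcl1, with differences of 1.11 and 1.12. Setd1b, of COMPASS, differed by 1.57. Spry4 and the PRC2-associated E130012A19Rik differed by 1.78 and 1.93.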

How the results depend on the processing

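The 7720 genes changed became 6680 with DESeq2's Wald test, 6692 without a filter, 7252 with at least 1 CPM in 2 libraries, 7863 with upper-quartile normalization and 6081 to 7197 without one of the libraries. Upper-quartile normalization moved the split from 3873 higher and 3847 lower to 4883 and 2980. An absolute log2 value above 1 in addition left 1330 genes (1119 higher, 211 lower), 1696 genes for the difference from the knockdown, 3 formative genes lower, 7 primitive endoderm genes higher and 11 fibroblast markers higher. Without one of the libraries 23 to 24 genes of the 2-cell-like list and 30 to 33 germline genes were higher, and 8 to 11 formative genes were lower. With peaks of -log10 q of at least 5, 28.9% of genes with H3K4me3 and RING1B were higher and 23.0% lower, and 26.6% of those with H3K4me3 and no RING1B were lower, so the order of the falls between these classes turned, and the cause was not tested. Ring1, which was not past the threshold, changed sign to 0.018 with upper-quartile normalization and ranged from -0.0909 to 0.0104 without one of the libraries. Pou5f1 ranged from -0.0032 to 0.059 without one of the libraries. With the replicate number as a block 7724 genes changed. Libraries of the same number did not deviate together (correlation -0.0257). This correlation alone cannot show whether they share more than a number. Of 1433 values of 145 genes over these alternatives, 1362 kept direction and call, 66 lost the call, 2 gained one and 3 changed sign. Of 446 values of 45 other genes that did not pass the threshold, 48 changed sign, in 25 genes. Depth limits the genes below 1 CPM, and 2 libraries per genotype limit the estimate of the spread.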

Other observations

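The lincRNA genes did not follow the balance of protein-coding genes. Of 544 lincRNA genes tested, 31 (5.70%) were higher and 70 (12.9%) lower in Rybp-/- ESCs, with a median log2 fold change of -0.18. Both shares were below the 22.8% and 22.7% of all genes. Of 15042 protein-coding genes 3751 were higher and 3690 lower, with a median of 0.01. Pseudogenes went the other way, with 42 of 666 higher (6.31%) and 25 lower (3.75%). The difference between these classes was not tested.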
